A study of Mus musculus with 8 samples.

Results

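Stat2, Irf9, Irf1, Irf7, Ddx58, Ifih1, Dhx58, Tlr3 and Zbp1 were followed in fibroblastic reticular cells (FRCs), the stromal fibroblasts of the lymph node. They were chosen by name as regulators of the interferon response and sensors of nucleic acids, with earlier results of these data known. All 9 had a row among the 55367 genes of the count table. RNA sequencing was performed on 8 libraries, with 2 replicates in each of 4 conditions, and gave totals of 8232889 to 14107964 counts per library. The cells were an FRC line grown out of lymph nodes of C57BL/6 mice that carried the p53ER/ER allele, so every condition shared this genotype and culture history. In the TCM condition FRCs received medium conditioned by B16.F10 melanoma cells, and in the CCM condition medium conditioned by FRCs themselves. In the LA condition they received RPMI with 15 mmol/L lactic acid, and in the vehicle condition the same medium with an equal amount of water. All media held 2% serum, were refreshed at 48 hours, and the cells were collected after 4 days. The line is a cultured model, and every library came from this line.

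Type I interferon signals through its receptor and JAK kinases to a complex that holds STAT2 and IRF9 and that enters the nucleus and switches on interferon-stimulated genes. IRF7 and IRF1 are transcription factors that drive interferon genes and parts of the same program. Ddx58 encodes RIG-I, Ifih1 encodes MDA5 and Dhx58 encodes LGP2, the cytosolic sensors of viral RNA, whereas TLR3 detects double-stranded RNA in endosomes and ZBP1 binds Z-form nucleic acids. Several of these genes are themselves induced by interferon, and fibroblasts use them to sense infection and damage.

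On GRCm38, the GENCODE M21 annotation placed Stat2 at chr10:128270559-128292849 (plus strand), Irf9 at chr14:55603571-55610030 (plus) and Irf1 at chr11:53770014-53778374 (plus). Irf7 lay at chr7:141262706-141266481 (minus), Ddx58 at chr4:40203773-40239828 (minus) and Ifih1 at chr2:62595798-62646255 (minus). Dhx58 lay at chr11:100694884-100704271 (minus), Tlr3 at chr8:45395665-45411080 (minus) and Zbp1 at chr2:173206612-173218923 (minus). Counts were summed over the exons of each gene. Exons of 5 of the 9 genes overlapped another annotated gene, over 1.19% to 7.32% of their length. The partner was on the same strand for Irf9 (Rnf31) and on the opposite strand for Irf1 (Gm17334), Irf7 (Phrf1), Dhx58 (Dhx58os) and Tlr3 (Gm45542).

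Promoter windows from RefSeq (GRCm38.p6), running from 250 bases before to 50 bases after a transcription start, were on hand for 7 of the 9 genes, in 9 windows. They were searched on both strands for GAAANNGAAA, the core of the interferon-stimulated response element bound by the STAT2 and IRF9 complex and by IRFs, and for TTCNNNGAA, the core of the gamma-activated site bound by STAT dimers. The first core was present in 3.44% of all 32851 windows and in those of Stat2, Ddx58 and Ifih1. The second was present in 8.30% of all windows and in 1 of the 2 windows of Irf1. Neither string of letters occurred in the windows of Irf7, Irf9 or Tlr3, and no overlap between matches of the 2 cores was seen. All 4 matches found are shown. Irf7 and Irf9, which held neither core, were also called higher in TCM over CCM. A link between the matches and the levels of the genes was not tested. Each is given 5′ to 3′ on the strand of its gene, with the matching bases in capitals.
Stat2: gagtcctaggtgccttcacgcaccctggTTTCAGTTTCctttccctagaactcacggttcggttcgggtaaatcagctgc
Irf1: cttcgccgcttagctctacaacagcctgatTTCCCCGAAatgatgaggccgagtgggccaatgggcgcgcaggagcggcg
Ddx58: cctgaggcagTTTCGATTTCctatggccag
Ifih1: gaagagaatcGAAACAGAAAccgatctg
The Stat2 stretch lay at chr10:128270248-128270327, with its match at -222 to -213 from the start (-1 is the base before it), read on the opposite strand. The Irf1 stretch lay at chr11:53769894-53769973, with a palindromic match at -90 to -82. In Ddx58 (chr4:40239804-40239833) the match covered transcribed bases 3 to 12 on the opposite strand, and in Ifih1 (chr2:62646206-62646233) transcribed bases 33 to 42 on the gene's own strand. A match of letters is a description of the sequence and was not tested as a binding site.

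The identity of the cells was checked first. Among FRC markers Pdpn had 1023 to 1845 counts per library and Vcam1 1190 to 2177, while Ccl21a had 0 counts in every library, Ccl19 had 1 count in a single library and Thy1 had 1 to 16 counts. The lymph node chemokine Cxcl13 was seen only in CCM replicate 1, with 43 counts. Of 7 leukocyte markers, Ptprc, Cd3e, Itgam and Siglech were at 0 in all libraries. Lyz2 had 74 to 213 counts per library, Csf1r 9 to 18 and Cd68 2 to 22. The summed level of the list ran from 15.3 to 18.7 CPM (counts per 1000000 counts of the library) in vehicle, 16.4 to 17.2 in CCM, 10.99 to 11.6 in LA and 14.7 to 24.4 in TCM. Of 8 melanoma markers, 5 never exceeded 3 counts in any library, Tyr at 0 throughout among them, and Tyrp1 gave 6 and 3 counts in the TCM libraries and 0 elsewhere. Pmel had 10 to 21 counts per library and Mitf 6 to 29. The summed level of the 8 melanoma markers was 2.23 to 3.42 CPM in vehicle, 1.81 to 3.03 in CCM, 3.59 to 3.66 in LA and 2.40 to 2.63 in TCM. All 4 endothelial markers had counts, but nearly all were from Emcn, with 314 to 884 counts per library. Tek had 6 to 65, Pecam1 only 4 to 9 and Cdh5 only 1 to 7. The sums were 38.5 to 46.4 CPM in vehicle, 62.4 to 64.1 in CCM, 52.5 to 67.8 in LA and 47.3 to 50.8 in TCM. The part of these cells in the results was not tested, and the bulk libraries cannot tell more cells of a type from more RNA per cell.

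Levels per exon length, as CPM per kilobase of exon (RPKM), placed the sensor Ddx58 highest in vehicle-treated FRCs, at 8.33 ± 1.04 RPKM (SD, n = 2). Irf1 (6.16 ± 0.172) and Tlr3 (5.81 ± 0.758) followed, with ranges that overlapped each other, then Stat2 (4.35 ± 0.422), Irf9 (3.597 ± 0.478), Ifih1 (2.62 ± 0.339) and Dhx58 (1.18 ± 0.0693). Irf7 was at 0.591 ± 0.167 RPKM and Zbp1 at 0.0709 ± 0.0108. Apart from Irf1 and Tlr3, no neighbours in this order overlapped. The length used was that of all annotated exons merged. For Irf7 this made 1 exon of 3776 bases that covered the whole gene. The order between genes depends on this choice of length, and other lengths were not tested. In TCM the order changed, with Stat2 at the top (18.0 ± 3.58 RPKM) in a range that overlapped that of Ddx58 (15.3 ± 2.80), then Irf9 (11.5 ± 1.72). Ifih1, Irf1, Dhx58, Tlr3 and Irf7 stood between 7.83 and 5.46 RPKM on average, each overlapping the next, and Zbp1 remained last (0.381 ± 0.160).

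**Figure D1:**
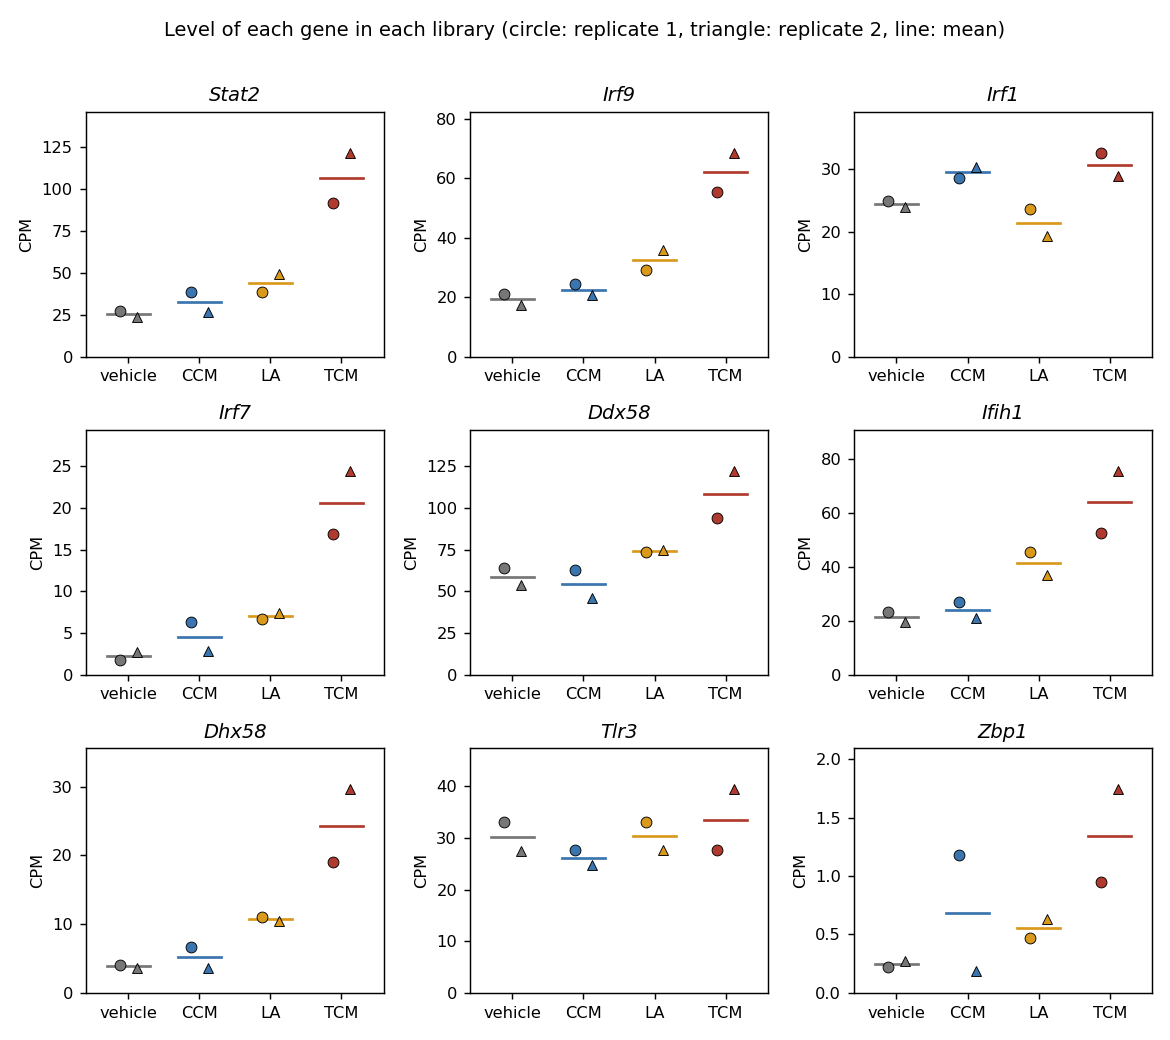
Level of each of the 9 genes in each library, in CPM on a linear axis from 0. Circles are replicate 1, triangles replicate 2 and lines the mean of 2 libraries. For 6 genes both TCM libraries lie above all others, whereas the conditions overlap for Tlr3 and Irf1 is lowest in LA.

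To ask how melanoma-conditioned medium acted on these genes, TCM was compared with CCM. Stat2, Irf9, Irf7, Ddx58, Ifih1 and Dhx58 rose in TCM, by 1.99-fold (Ddx58) to 4.63-fold (Dhx58), whereas Irf1 and Tlr3 did not pass the test. A gene was called when edgeR's quasi-likelihood test gave a Benjamini-Hochberg adjusted p under 0.05 and a log2 fold change beyond 0.39. Thus 6 of 8 tested members were called higher and 0 lower, beside 8.83% of all 12137 tested genes called higher and 19.1% called in either direction. The median log2 fold change was 1.43 over the 8 members and 0.00032 over all tested genes. Both TCM libraries lay above both CCM libraries for the same 6 of the 9 genes, as they did for 27.8% of all tested genes.

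Among the regulators, Stat2, a subunit of the interferon-activated complex, was at 38.4 and 26.5 CPM in CCM and at 91.7 and 121.7 CPM in TCM. The ranges did not overlap, and the log2 fold change was 1.71 ± 0.192 (SE), with an adjusted p of 0.000137. Irf9, which gives that complex its DNA binding, was at 24.3 and 20.8 CPM in CCM and 55.4 and 68.5 CPM in TCM. The log2 fold change was 1.45 ± 0.154 (adjusted p = 0.000102). Its neighbour Rnf31, with which it shares 123 bases of exon, was also called higher by edgeR (log2 fold change 0.48, adjusted p = 0.0166). The part of the shared bases in the Irf9 value was not tested.

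Irf7, the amplifier of type I interferon production, was the scarcest of the tested members in vehicle and moved by a large factor. It was at 6.32 and 2.86 CPM in CCM and at 16.8 and 24.4 CPM in TCM, a log2 fold change of 2.14 ± 0.297 (adjusted p = 0.000524). The 2 CCM libraries themselves differed by 2.21-fold, and the log2 fold change was 2.84 without CCM replicate 1 and 1.70 without CCM replicate 2. Irf1, by contrast, was at 28.6 and 30.4 CPM in CCM and 32.6 and 28.9 CPM in TCM. These ranges overlapped and the log2 fold change of 0.059 had a 95% interval from -0.22 to 0.34 (adjusted p = 0.781), and its sign turned (-0.081) when libraries were scaled by their totals alone.

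The cytosolic RNA sensors rose together in TCM. Ddx58 (RIG-I) was at 62.7 and 45.8 CPM in CCM and 94.2 and 122.1 CPM in TCM, with a log2 fold change of 0.99 ± 0.163 (adjusted p = 0.00151). Ifih1 (MDA5) was at 26.9 and 20.9 CPM in CCM and 52.4 and 75.4 CPM in TCM, with a log2 fold change of 1.41 ± 0.190 (adjusted p = 0.000420). Dhx58 (LGP2), which modulates the other two, was at 6.74 and 3.63 CPM in CCM and 19.1 and 29.7 CPM in TCM, and had the highest log2 fold change of the members, 2.21 ± 0.268 (adjusted p = 0.000217). In each case both TCM libraries stood above both CCM libraries. Each of the 6 calls was kept in all 17 alternative fits, with the highest adjusted p at 0.0184 (Ddx58, without CCM replicate 2).

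The endosomal sensor Tlr3 was at 27.7 and 24.7 CPM in CCM and 27.7 and 39.5 CPM in TCM. TCM replicate 1 lay within the CCM range, and the log2 fold change of 0.35 (95% interval -0.029 to 0.74, adjusted p = 0.176) was not called. Without TCM replicate 1 it was 0.59 and was called (adjusted p = 0.0116). Zbp1 had 10 or more counts in only 2 libraries and so was not tested by edgeR. Its counts were 14 and 2 in CCM and 9 and 16 in TCM, a ratio of summed counts, scaled for depth, of 1.87 with an exact 95% interval of 0.96 to 3.75 that covers counting error only.

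**Figure D2:**
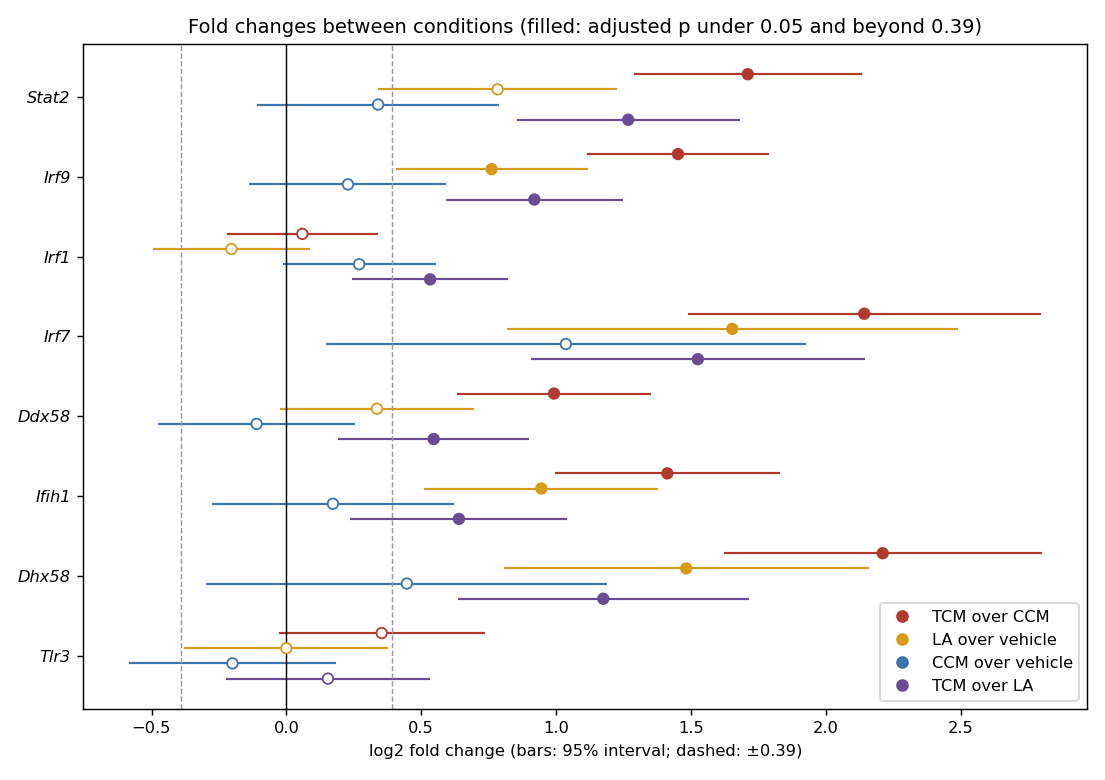
Log2 fold changes of the 8 tested genes in 4 comparisons, with 95% intervals from edgeR's quasi-likelihood fit. Filled points have an adjusted p under 0.05 and lie beyond the dashed lines at ±0.39. TCM over CCM is filled for 6 genes and LA over vehicle for 4, and CCM over vehicle is filled for none.

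To ask whether lactic acid alone moved the same genes, LA was compared with vehicle. Irf9, Irf7, Ifih1 and Dhx58 rose, by 1.69-fold (Irf9) to 3.14-fold (Irf7). Stat2 stood at a log2 fold change of 0.78 and Ddx58 at 0.34 without passing the test, and Irf1 (-0.20) and Tlr3 (-0.00022) were near or below 0. In all, 4 of 8 tested members were called higher and 0 lower, beside 1.31% of all tested genes called higher and 2.55% called in either direction. The median log2 fold change was 0.77 over the 8 members and -0.00035 over all tested genes. Both LA libraries were above both vehicle libraries for 6 of the 8 tested members, and for 23.7% of all tested genes.

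These 4 calls lay close to the threshold and rested on all 4 libraries compared. No member was called when vehicle replicate 1, vehicle replicate 2, LA replicate 1 or LA replicate 2 was left out. The share of all tested genes called then fell to between 0.470% and 0.667%. Irf9 alone was also lost without CCM replicate 1 (adjusted p = 0.0531) or CCM replicate 2 (0.0530), libraries that enter this comparison only through the estimate of the spread. The 4 fold changes kept their direction in each of these fits.

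Dhx58 was at 4.02 and 3.70 CPM in vehicle and 11.1 and 10.5 CPM in LA, with little spread in either group. Its log2 fold change was 1.48 ± 0.307 (adjusted p = 0.0308). Irf7 was at 1.78 and 2.68 CPM in vehicle and 6.73 and 7.47 CPM in LA, a log2 fold change of 1.65 ± 0.380 (adjusted p = 0.0466), and its call was lost when every library had to hold 10 counts (adjusted p = 0.0537). For both genes the LA libraries lay well clear of the vehicle libraries, at low levels.

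Ifih1 was at 23.3 and 19.4 CPM in vehicle and 45.4 and 37.1 CPM in LA, with a log2 fold change of 0.95 ± 0.197 (adjusted p = 0.0312). Irf9 was at 21.2 and 17.6 CPM in vehicle and 29.2 and 35.8 CPM in LA, with a log2 fold change of 0.76 ± 0.162 (adjusted p = 0.0332). Stat2, at 27.6 and 24.02 CPM in vehicle and 38.5 and 49.5 CPM in LA, also had separate ranges, but its adjusted p was 0.0727. Stat2 passed when only the vehicle and LA libraries were fitted (adjusted p = 0.0153) and in DESeq2 (0.00938), and its adjusted p ran up to 0.549 over the alternatives.

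Ddx58 was at 63.9 and 53.6 CPM in vehicle and 73.4 and 74.7 CPM in LA. The ranges were separate, but the 95% interval of the log2 fold change reached from -0.025 to 0.70 (adjusted p = 0.389). Irf1 was at 25.0 and 24.02 CPM in vehicle and 23.6 and 19.3 CPM in LA, the only tested member with both LA libraries below both vehicle libraries (log2 fold change -0.20, 95% interval -0.50 to 0.088). Tlr3 was at 33.0 and 27.4 CPM in vehicle and 33.1 and 27.6 CPM in LA, and its 95% interval spanned -0.38 to 0.38. Zbp1 had 2 and 3 counts in vehicle and 4 and 9 in LA, a ratio of 2.27 with an exact 95% interval of 0.76 to 8.14.

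The effects of TCM and LA were then compared within the same fit, as the log2 fold change of TCM over CCM minus that of LA over vehicle. The difference was above 0 for all 8 tested members, from 0.26 (Irf1) to 0.93 (Stat2), with a median of 0.57 against 0.0054 over all tested genes. None of the 8 was called, whereas 10.4% of all tested genes were. Unadjusted p was under 0.05 in edgeR for 2940 of the 12137 tested genes. Among them were 3 members, Stat2 (difference 0.93 ± 0.277, adjusted p = 0.0568), Irf9 (0.69 ± 0.223, adjusted p = 0.0766) and Ddx58 (0.66 ± 0.230, adjusted p = 0.102). Stat2 was called in DESeq2 (1 member), and without CCM replicate 1 (adjusted p = 0.0281). All 3 were called without TCM replicate 1, with adjusted p of 0.0498 for Stat2, 0.0134 for Irf9 and 0.0374 for Ddx58. For Irf7 the 95% interval of the difference, -0.63 to 1.61, and for Dhx58 that of -0.20 to 1.66, left room for both equal and unequal effects.

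TCM and LA were also compared directly, although cells had conditioned only the first of these media. Members called higher in TCM numbered 7 of 8, all but Tlr3, beside 8.34% of all tested genes called higher and 16.1% called in either direction. Irf7 was 2.88-fold higher in TCM than in LA, Stat2 2.41-fold, Dhx58 2.26-fold and Irf9 1.89-fold. Ifih1 (1.56-fold), Ddx58 (1.46-fold) and Irf1 (1.45-fold, adjusted p = 0.0173) were closer to the threshold. Irf1 entered this comparison from a low level in LA, 23.6 and 19.3 CPM, against 32.6 and 28.9 CPM in TCM. Its call was lost when only the TCM and LA libraries were fitted (adjusted p = 0.0613), and those of Irf1, Ifih1 and Ddx58 when libraries were scaled by their totals alone. Only 3 members were called without LA replicate 2, 5 without LA replicate 1, vehicle replicate 2 or TCM replicate 2, and 6 without vehicle replicate 1 or TCM replicate 1. Zbp1 had a ratio of TCM to LA of 2.33 (exact 95% interval 1.149 to 4.97).

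In TCM over vehicle the same 6 members as against CCM were called higher, beside 8.58% of all tested genes called higher and 17.5% called in either direction. Irf7 rose by 9.05-fold and Dhx58 by 6.31-fold, followed by Stat2 (4.14-fold), Irf9 (3.20-fold), Ifih1 (3.0-fold) and Ddx58 (1.84-fold). Both TCM libraries lay above both vehicle libraries for every member but Tlr3. The share of all tested genes with such separate libraries was not computed for this comparison, so nothing was read from this about the members. Ddx58 was not called without vehicle replicate 2 (adjusted p = 0.0527), and Irf1 was called without TCM replicate 2 (log2 fold change 0.41, adjusted p = 0.0395). The Zbp1 counts, 5 in the vehicle libraries together and 25 in TCM, gave a ratio of 5.30 (exact 95% interval 1.99 to 17.7).

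The 2 control media were compared to see how far they differed. In CCM over vehicle 0 of 8 members were called by edgeR, beside 1.3% of all tested genes, and DESeq2 likewise called 0. At an unadjusted p under 0.05 there were 1563 of the 12137 tested genes. Among them was 1 member, Irf7, at 2.05-fold (log2 fold change 1.04 ± 0.404, adjusted p = 0.290). That value was 0.34 without CCM replicate 1 and 1.48 without CCM replicate 2. In LA over CCM 0 members were called by edgeR, beside 0.626% of all tested genes, and DESeq2 called 2, beside 1.21%. An unadjusted p under 0.05 was seen for 1293 of the 12137 tested genes, among them 6 members. Of these 6, Irf1 was lower in LA (log2 fold change -0.47 ± 0.129, adjusted p = 0.176) and Stat2, Irf9, Ddx58, Ifih1 and Dhx58 were higher. Without TCM replicate 1 or TCM replicate 2, which enter only through the spread, calls of members in LA over CCM went in both directions. The log2 fold changes in either fit were 1.03 (Dhx58), 0.77 (Ifih1), 0.54 (Irf9) and -0.48 (Irf1). More of all tested genes were then called as well.

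**Figure D3:**
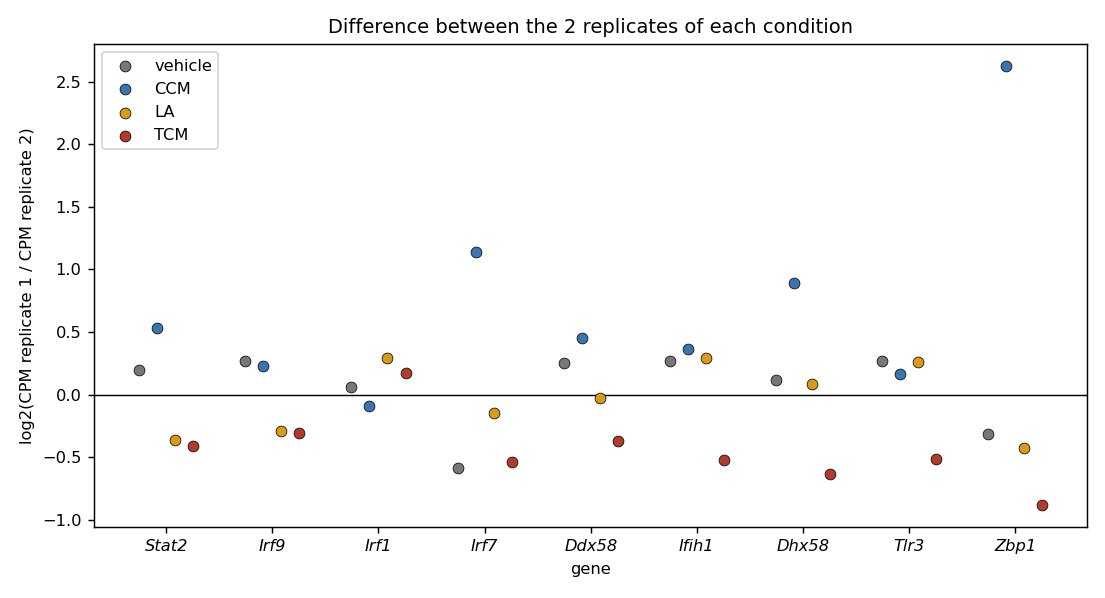
Log2 ratio of CPM in replicate 1 to replicate 2 for each of the 9 genes, with 1 point for each condition and a line at 0 for equal replicates. CCM points lie above 0 for all genes but Irf1 and TCM points below 0 for all but Irf1, and the CCM point of Zbp1 rests on 14 and 2 counts.

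The replicates were not equal, and within CCM and within TCM most members shifted the same way. CCM replicate 1 was above CCM replicate 2 for 8 of the 9 genes, all but Irf1, by 1.12-fold (Tlr3) to 2.21-fold (Irf7) among the tested members. TCM replicate 2 was above TCM replicate 1 for 8 of the 9 genes, again all but Irf1, by 1.24-fold (Irf9) to 1.56-fold (Dhx58) among the tested members. How many of all tested genes shifted in these directions was not computed. The libraries of a group differed by more than counting error over all tested genes, with a chi-square per degree of freedom of 3.28 in CCM, 4.82 in vehicle, 7.32 in LA and 19.8 in TCM. CCM replicate 1 was also the library with Cxcl13 counts, and the interferon-induced protease gene Usp18 had 62 counts in it and 10 in CCM replicate 2. The part of this library in the CCM values was not tested beyond leaving it out.

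Across the 8 libraries, 6 members kept nearly the same profile. The correlation of log2 CPM with the mean of the other members was 0.93 (Irf7) to 0.97 (Stat2) for Stat2, Irf9, Irf7, Ddx58, Ifih1 and Dhx58. It was 0.54 for Tlr3 and 0.20 for Irf1. These are descriptions over 8 libraries that share their 4 conditions. The highest pairwise value was between Stat2 and Irf9 (0.99), which encode parts of a single complex, and the next between Ifih1 and Dhx58 (0.99). In the standardized values Irf1 was highest in TCM replicate 1 and CCM replicate 2, where the other members were not at their highest, and lowest in LA replicate 2.

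**Figure D4:**
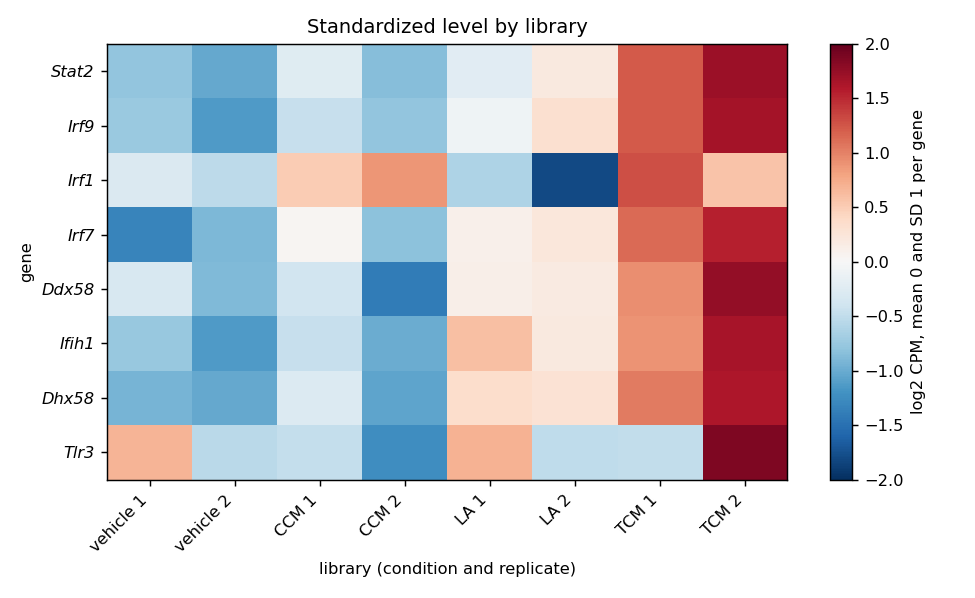
Standardized log2 CPM (mean 0 and SD 1 per gene over the 8 libraries) of the 8 tested genes, with libraries in columns and blue for low, red for high values. TCM replicate 2 is the highest library for all genes but Irf1, and the row of Irf1 is lowest in LA replicate 2.

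The genes outside the set whose profile over the 8 libraries was most like the mean of the 8 members were Tgtp2, Irgm2, Parp12, Oasl2, Bst2, Ppp1r9a, Iars2, Xaf1, Rnf31 and Pnpt1, with Pearson's r of 0.97 to 0.99 on log2 CPM. Tgtp2 and Irgm2 encode interferon-inducible GTPases, Oasl2 an oligoadenylate synthetase-like protein and Bst2 the antiviral membrane protein tetherin. Bst2 was at 9.93 and 9.05 CPM in vehicle, 18.4 and 11.5 in CCM, 27.1 and 33.7 in LA and 85.3 and 141.3 in TCM. Of the 10, Bst2 alone was called in LA over vehicle (log2 fold change 1.69, adjusted p = 0.0132). In TCM over CCM, Iars2 (log2 fold change 0.26) and Pnpt1 (0.34) were not called. The 10 were picked by their profile in these same libraries, so their calls are not independent of that choice. By Spearman's rho in place of Pearson's r, Parp12 ranked 1, and Tgtp2, Irgm2, Oasl2 and Ppp1r9a shared rank 7 with further genes. Bst2, Iars2, Xaf1 and Pnpt1 fell to rank 28, and Rnf31, which shares exon bases with Irf9, to rank 54.

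The genes that lie before, beside and after the members in the pathway were then examined. None of 21 interferon genes (type I, II and III) was expressed at a testable level. In all, 18 had 0 counts in every library and the list summed to 14 counts over the 8 libraries. Ifnz had the highest level, 3 counts in CCM replicate 2 and 0 or 1 elsewhere. A count of 0 allowed levels of up to 0.211 to 0.354 CPM, depending on the library.

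Of 12 tested genes for interferon receptors and JAK-STAT proteins, 1 was called higher and 2 lower in TCM over CCM. Stat3, which carries the signal of several cytokine receptors, was at 154.2 and 160.4 CPM in CCM and 211.4 and 241.8 CPM in TCM, a log2 fold change of 0.53 ± 0.0952 (adjusted p = 0.00277). The receptor gene Ifngr1 (-0.41) and the kinase gene Jak2 (-0.40) fell. In LA over vehicle 0 of the 12 were called by edgeR. An unadjusted p under 0.05 was seen there for 1 of them and for 1731 of all 12137 tested genes. The median over the 12 genes was 0.14 in TCM over CCM and -0.056 in LA over vehicle.

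Among 6 other tested IRF genes and IRF-binding proteins, 0 were called by edgeR in TCM over CCM or in LA over vehicle, and 0 had an unadjusted p under 0.05 in either. Irf2bp2, which encodes a corepressor of IRF2 and had the highest level of the list, was at 86.2 and 95.5 CPM in CCM and 91.0 and 80.3 CPM in TCM. Of 16 tested adaptors and kinases that carry the sensors' signal, 3 were called higher in TCM and 0 lower. These were Trim25, the ubiquitin ligase that activates RIG-I (log2 fold change 0.82), Unc93b1, which escorts endosomal Toll-like receptors (0.87), and Myd88, an adaptor of Toll-like receptors other than TLR3 (0.55). The median was 0.060 for the other IRF genes and 0.02 for adaptors and kinases. The adaptors and kinases had 0 calls in LA over vehicle by edgeR and 3 at an unadjusted p under 0.05. Such a p was seen for 1731 of all 12137 tested genes.

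Of 12 other tested nucleic acid sensors and effectors, 6 were called higher and 1 lower in TCM over CCM, with a median log2 fold change of 0.43. Over all tested genes 8.83% were called higher and 19.1% in either direction. Eif2ak2, which encodes the RNA-activated kinase PKR, was at 71.1 and 65.3 CPM in CCM and 99.7 and 126.5 CPM in TCM (log2 fold change 0.73). Adar (0.55), which edits double-stranded RNA, and the DNA-binding genes Ifi204 (0.88) and Ifi203 (1.69) also rose. Oas1a (2.37) and Ddx60 (2.38) had the highest fold changes but at most 20 and 21 counts in any library. Cgas, the cytosolic DNA sensor, fell from 6.65 and 7.06 CPM in CCM to 3.68 and 4.03 CPM in TCM (log2 fold change -0.83, adjusted p = 0.0127). In LA over vehicle 0 of the 12 were called by edgeR, 5 had an unadjusted p under 0.05, and 11 stood above 0. Of all 12137 tested genes, 1731 had an unadjusted p under 0.05 there and 6054 stood above 0.

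Of 18 tested genes that restrain interferon or sensor signalling, 3 were called higher and 0 lower in TCM over CCM, with a median of 0.15. Usp18, which removes ISG15 and blocks the interferon receptor, was at 5.22 and 0.95 CPM in CCM and 13.0 and 15.6 CPM in TCM (log2 fold change 2.16 ± 0.420, adjusted p = 0.00425). Socs3, an inhibitor of cytokine receptors (1.05), and Samhd1, a nucleotide hydrolase (0.48), rose as well. In LA over vehicle Usp18 stood at 1.12 and 0.92 CPM against 5.67 and 4.79 CPM (log2 fold change 2.34), with an adjusted p of 0.0727. By edgeR 0 of the 18 were called there. An unadjusted p under 0.05 was seen for 3 of the 18 and for 1731 of all 12137 tested genes. The counts called in TCM over CCM for this list, for the adaptors and kinases and for the receptors and JAK-STAT genes lay close to the 19.1% of all tested genes. Nothing was read from them about those lists, nor from their counts at an unadjusted p under 0.05 in LA over vehicle.

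**Figure D5:**
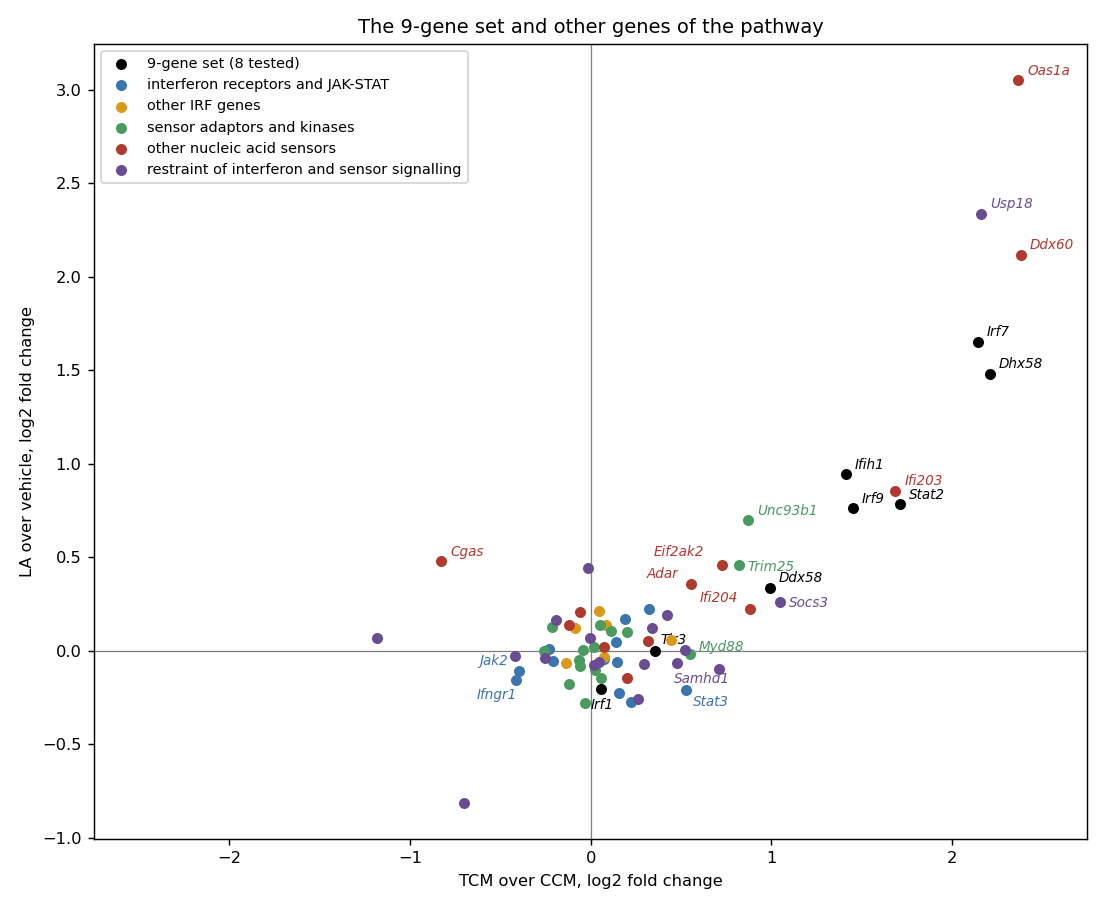
Log2 fold change of TCM over CCM (horizontal) against LA over vehicle (vertical) for the 8 tested genes (black) and 5 lists of other pathway genes (colours), with names for the 8 and for genes called in either comparison. Ddx60, Oas1a, Usp18, Irf7 and Dhx58 lie far to the upper right, Irf1 and Tlr3 near 0, and Cgas to the left.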

How the data were processed

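RNA was sequenced from 8 FRC libraries (4 conditions, 2 replicates each, described in the study as biological). The authors deposited raw read counts per gene; per the labels and processing notes they used a directional poly(A) kit, STAR 2.7.0a, featureCounts of Subread 2.0.1 and GRCm38 (mm10). Whether reads were counted by strand is not given in the sources used here. A second deposited table, named as normalized, held the same raw counts for 12137 genes (100% of values equal) and was not used further.

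Of 55367 genes, 12137 reached 10 counts in 3 or more libraries and were tested. Library sizes were scaled by TMM factors (0.938 to 1.04), and all 8 libraries were fitted with 1 term per condition by edgeR 4.0.16 (robust quasi-likelihood, R 4.3.3). Adjusted p values are Benjamini-Hochberg values over all 12137 genes. A call needed an adjusted p under 0.05 and a log2 fold change beyond 0.39. The procedure was tested on simulated data. CPM values use the total counts and TMM factors, and log2 CPM a prior count of 2. RPKM divides by the merged exon length. Totals ran from 8232889 to 14107964 counts, so 3 counts correspond to 0.211 to 0.354 CPM. With 2 against 2 libraries, a permutation test cannot go below p = 0.333, so calls come only from the fit across genes.

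The members and lists were chosen with earlier results of these data known. The text names every member, the genes of 6 pathway lists (interferon genes, receptors and JAK-STAT, other IRF genes, adaptors and kinases, other sensors, restraint of signalling) called in TCM over CCM or LA over vehicle, the gene of highest level where a list had no call, and the 10 genes most like the members. Alternatives were DESeq2 1.42.0 (test or size factors), no scaling, 2 other filters, only the libraries compared, a replicate block, stricter fold thresholds and leaving out each library. Certain genes are not reported here.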

Additional observations from a re-analysis of the deposited data

Results flagged for a closer look

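No member had a called difference between the TCM and LA effects. Of the pathway genes named above, 4 did in edgeR's test of that difference (log2 fold change of TCM over CCM minus that of LA over vehicle). Stat3 differed by 0.74 (0.53 in TCM over CCM and -0.21 in LA over vehicle). Cgas differed by -1.305 (-0.83 and 0.48). Socs3 differed by 0.79 (1.05 and 0.26), and Samhd1 by 0.54 (0.48 and -0.07). With 2 libraries per condition, no library was examined as an outlier within its group.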

How the results depend on the processing

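The 6 calls of TCM over CCM and those of TCM over vehicle numbered 6 under every setting that kept all libraries, except 5 in each beyond a log2 fold change of 1 and 7 in TCM over vehicle with no filter, where Zbp1 was also tested and the count is over 9 genes. Leaving out 1 library gave 6 to 7 and 5 to 7. In LA over vehicle the 4 calls became 3 with at least 10 counts in every library (Irf7 lost), 2 beyond a log2 fold change of 1 and 0 with glmTreat against 0.39, and 0 to 4 with 1 library left out. In TCM over LA the 7 calls became 4 beyond 0.68, 3 beyond 1, 4 with glmTreat, 4 with no scaling factors, 6 with only the libraries compared (Irf1 lost), and 3 to 7 with 1 library left out. The difference of effects, with 0 calls, had 3 with no filter, 1 in DESeq2's test and 0 to 3 with 1 library left out. LA over CCM, also with 0, had 5 with no filter, 4 with only the libraries compared, 2 in DESeq2's test and 0 to 4 with 1 library left out. CCM over vehicle had 1 with no filter, and 0 throughout with 1 library left out. Without the filter 23234 genes were fitted and the prior degrees of freedom became infinite, against 7.0 in the reported fit, so each gene's own spread was no longer used. The share of all fitted genes called changed as well. In LA over CCM it was 0.626% in the reported fit and 1.76% with no filter. With only the libraries compared it was 2.64%, and in DESeq2's test 1.21%. In the difference it was 10.4% in the reported fit, 7.74% with no filter and 9.26% in DESeq2's test. In CCM over vehicle it was 1.3% and, with no filter, 2.51%.

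Same-numbered libraries did not deviate together in every pair of conditions (correlations of -0.24 for CCM and TCM to 0.35 for vehicle and LA), so the numbers were not taken as pairs. A replicate block left the counts of called members at 6, 4, 0, 0, 0, 6 and 7 for TCM over CCM, LA over vehicle, the difference, CCM over vehicle, LA over CCM, TCM over vehicle and TCM over LA, with 2367 against 2314 genes called over the whole table in TCM over CCM. A replicate block in which CCM libraries 1 and 2 swapped numbers, an alternative chosen after seeing the data, gave 3 called members in the difference and 3 in LA over CCM. Signs turned only for values that were not called, most of them near 0. For Irf1 in TCM over CCM this was -0.081 with no scaling factors (-0.031 to 0.14 with 1 library left out). For Tlr3 in LA over vehicle it was 0.0051 with no scaling factors, 0.0080 with no filter, 0.00068 with the replicate block and 0.0011 in DESeq2 (-0.13 to 0.14 with 1 library left out). In CCM over vehicle, leaving out 1 library gave -0.36 to 0.095 for Ddx58, -0.027 to 0.34 for Ifih1 and -0.084 to 0.81 for Dhx58, whose value with all libraries was 0.45. Tlr3, at 0.15 in both TCM over LA and TCM over vehicle, turned to -0.12 in both without TCM replicate 2. The cause of these changes was not tested. Of 536 refitted member values in TCM over CCM, LA over vehicle, the difference and CCM over vehicle, 482 kept their direction and side of the threshold.

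With no scaling factors the median of all genes in TCM over CCM moved to -0.14, and 24.2% of called genes were higher, against 46.3% with TMM. The main limit is the number of replicates. With 2 per condition the test borrows its spread from other genes and conditions, and the LA calls depended on every library compared. Zbp1, Oas1a, Ddx60 and the interferon genes were near the limit that depth sets. When a library was left out, the lone sample of its condition was assumed to vary like the others.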
